A study of Homo sapiens with 12 samples.

Results

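The genes described here were 10 markers by which carcinomas of the ovary and other epithelial tumors are recognized: PAX8, WT1, MUC16, MSLN, WFDC2, KRT7, KRT8, KRT18, EPCAM and FOLR1. They were taken by symbol from a table of 56269 genes, in which each of the 10 had 1 row, and the rule used names and no measured value. The table held raw RNA-seq counts from 12 libraries of HEYA8, a human ovarian cancer cell line that the labels call high-grade serous ovarian cancer. Cells carried either a control vector or a mutant of betaglycan, the TGF-β co-receptor encoded by TGFBR3 whose glycosaminoglycan (GAG) chains hang from 2 serines. Each of these serines was changed to alanine alone in S534A (CS-BG) and S545A (HS-BG), and both were changed in ∆GAG-BG. Each of the 4 groups had 3 libraries, cells in all groups stood in RPMI-1640 with 10% FBS in a resting state, and no group with full-length betaglycan was among the libraries analysed here. According to the methods the constructs were delivered by lentivirus with dTomato and infected cells were sorted on dTomato, and whether the 3 libraries of a group came from separate infections is not given in the sources used here. The third S545A library is titled S545S but its genotype label reads S545A.

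Total counts ran from 16410001 to 29504297 per library. Levels below are CPM (library totals scaled by TMM) where libraries are compared within a gene, and TPM, which also divide by gene length, where genes are compared. TGFBR3 served as the check of the labels. It stood at 413 to 476 CPM in S534A and 519.9 to 574 CPM in S545A. In ∆GAG-BG it was 259, 20.3 and 21.4 CPM in libraries 1, 2 and 3, and in control vector it was 15.9, 259 and 259 CPM. Libraries 2 and 3 of ∆GAG-BG and of control vector therefore go against their labels, and comparisons with either group were also fitted without them. Group names below mean the libraries so labelled. In 3 groups (control vector, ∆GAG-BG and S545A) library 2 closely resembled library 3, their counts differing by 1.4 to 1.99 in chi-square divided by its degrees of freedom against 17.3 to 77.9 for every other pair within a group, so p-values measure a spread that may be partly technical.

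PAX8 and WT1 are transcription factors that pathologists use to assign a tumor to the Müllerian epithelium and, within it, to the serous type. MUC16 carries the CA125 epitope and WFDC2 encodes HE4, both measured in blood of patients with ovarian cancer, while mesothelin (MSLN) and folate receptor α (FOLR1) are surface proteins targeted by antibodies. Keratins 7, 8 and 18 form the intermediate filaments of simple epithelia, in which each filament pairs a type II chain (KRT7, KRT8) with a type I chain (KRT18), and EPCAM is an adhesion protein of epithelial cells. Tumor cells that take on a mesenchymal state usually lower EPCAM and E-cadherin (CDH1) and raise vimentin (VIM).

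Of these 10 genes RefSeq promoter windows, 250 bases before a start in GRCh38.p14, were at hand for 5. For 3 of them a window crossed the start of the gene as counted, so part of it lay inside that gene. They are shown because the data split them: PAX8 and WT1 were transcribed in HEYA8 while WFDC2 was not detected above the counting floor. The bases ahead of each counted gene are given 5′ to 3′ on the strand of the gene, with every CG dinucleotide in capitals. PAX8 is chr2:113278951-113279171 on the minus strand, WT1 is chr11:32435631-32435789 on the minus strand and WFDC2 is chr20:45469503-45469705 on the plus strand.
PAX8: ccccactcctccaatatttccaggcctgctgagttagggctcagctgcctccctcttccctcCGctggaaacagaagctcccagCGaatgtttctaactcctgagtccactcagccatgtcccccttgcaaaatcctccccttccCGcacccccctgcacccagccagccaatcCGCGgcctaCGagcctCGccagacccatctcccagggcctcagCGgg
WT1: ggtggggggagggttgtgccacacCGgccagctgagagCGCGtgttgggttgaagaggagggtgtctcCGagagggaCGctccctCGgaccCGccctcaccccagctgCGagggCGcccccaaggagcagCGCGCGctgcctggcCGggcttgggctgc
WFDC2: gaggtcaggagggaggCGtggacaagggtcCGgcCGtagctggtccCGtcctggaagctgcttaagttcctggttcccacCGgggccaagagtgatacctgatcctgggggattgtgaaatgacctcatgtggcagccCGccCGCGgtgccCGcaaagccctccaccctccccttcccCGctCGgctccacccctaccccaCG

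The stretches held 8 CG in 221 bases for PAX8, 13 in 159 bases for WT1 and 12 in 203 bases for WFDC2. The whole windows of 250 bases include bases inside the counted gene, and for WT1 the 1 of 4 that crossed its start was used. In these windows PAX8 had 11 CG, the median of all 35116 windows, and WT1 and WFDC2 had 19 each, more than 65.4% of all windows. CACCTG, an E-box hexamer, was in the WFDC2 window on one strand or the other and in neither of the PAX8 and WT1 windows. In WFDC2 it lay outside the stretch printed above, in the part of the window inside the counted gene. Of all windows 17.5% held it. TATAAA was in none of the 3 windows, against 10.7% of all.

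Of the 10 markers, 6 were expressed in every library and 3 were not detected above the floor in any. Expressed means at least 1 CPM in all 12 libraries, which held for KRT7, KRT8, KRT18, PAX8, MSLN and WT1 and for 22.1% of all genes in the table. Not detected means at most 3 counts in every library, the most that a count of 0 allows, which is 0.10 to 0.182 CPM at these depths and covers counting error only. MUC16, WFDC2 and FOLR1 fell there, as did 60.5% of all genes. EPCAM lay between, at 0.367 to 1.76 CPM. In bulk RNA, expression in fewer cells and less RNA per cell cannot be told apart. With the limit at 0.5 or 2 CPM, or at 1 TPM, the number expressed stayed at 6.

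**Figure D1:**
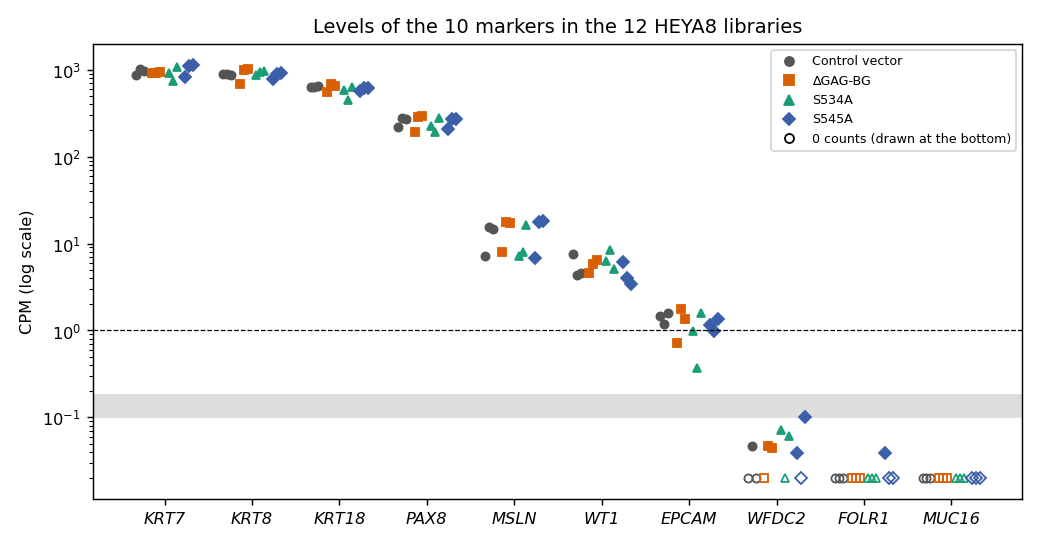
Level of each of the 10 markers in the 12 libraries, in CPM on a log scale. Each point is 1 library, colored and shaped by group, open points at the bottom are libraries with 0 counts, the dashed line is 1 CPM and the grey band is the CPM of 3 counts over the libraries (0.10 to 0.182). KRT7, KRT8, KRT18 and PAX8 lie at 193 CPM or higher, MSLN and WT1 between 3.41 and 18 CPM, EPCAM around the line, and WFDC2, FOLR1 and MUC16 at or below the band.

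Per length, the order was KRT7 (mean 999 TPM), KRT18 (807 TPM), KRT8 (557 TPM), PAX8 (145 TPM), MSLN (21.7 TPM), WT1 (5.81 TPM) and EPCAM (2.08 TPM). KRT7 and KRT18 overlapped over the libraries, at 760.2 to 1210.5 and 585 to 902 TPM, but within each of the 12 libraries KRT7 was the higher. KRT18 and KRT8 also overlapped in range, with KRT8 at 422 to 636 TPM, and KRT18 was above KRT8 in 12 of 12 libraries. Below KRT8 no neighbours in the order overlapped. The steps down were 109 to 173 TPM for PAX8, 11.5 to 30.6 TPM for MSLN, 3.61 to 8.50 TPM for WT1 and 0.608 to 3.01 TPM for EPCAM.

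The 3 keratins were among the most abundant messages of these cells. KRT7, a type II keratin of simple and ductal epithelia (chr12:52232520-52252186, plus strand), ranked 114 by mean TPM among the 16069 genes tested. KRT18, the type I partner of KRT8 (chr12:52948871-52952901, plus strand), ranked 147, and KRT8 (chr12:52897187-52949954, minus strand) ranked 229. Together they made up 92.2% to 94.3% of the summed TPM of 66 keratin genes in every library. Those 66 were taken by symbol and include pseudogenes such as KRT87P.

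By library KRT7 was 857, 1009 and 957 CPM in control vector libraries 1, 2 and 3, 914, 923 and 931 CPM in ∆GAG-BG, 905, 745 and 1072 CPM in S534A and 822, 1099 and 1139 CPM in S545A. The lowest KRT7 value was S534A library 2, and in control vector, ∆GAG-BG and S545A library 1 was the lowest. All 4 groups overlapped, and ∆GAG-BG, with the tightest libraries, lay inside the range of each of the other 3.

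KRT8 was 891, 898 and 877 CPM in control vector, 687, 995 and 1006 CPM in ∆GAG-BG, 860.1, 925 and 965 CPM in S534A and 777, 879 and 909 CPM in S545A. The 3 control vector libraries lay within 21.4 CPM of each other, while ∆GAG-BG held both the lowest and the highest of the 12 values. KRT18 was 627, 624 and 645 CPM in control vector, 547, 674 and 648 CPM in ∆GAG-BG, 588, 450.4 and 629 CPM in S534A and 559.8, 613 and 617 CPM in S545A. Its lowest library was again S534A library 2, and S545A was the only group lying wholly below control vector.

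**Figure D2:**
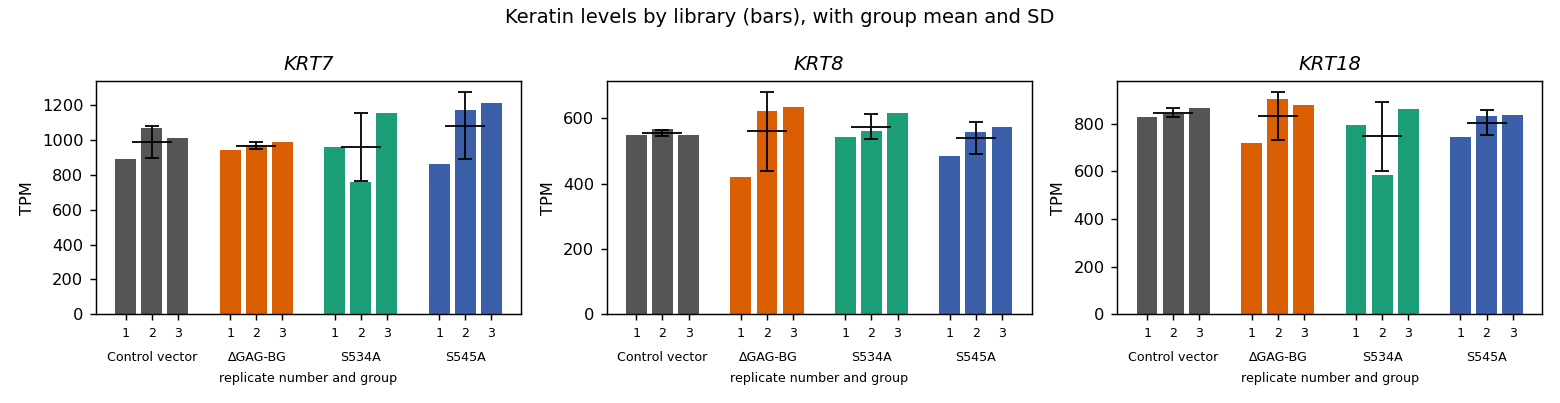
TPM of KRT7, KRT8 and KRT18 in each library (bars, numbered by replicate within the 4 groups), with the group mean (horizontal line) and SD (error bar, n = 3). KRT8 dips to 422 TPM in ∆GAG-BG library 1, and KRT7 and KRT18 dip to 760.2 and 585 TPM in S534A library 2.

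The proportions among the 3 keratins were less steady than their share. The ratio of KRT8 to KRT18 in TPM was 0.588 in ∆GAG-BG library 1 and 0.636 to 0.726 in the next 10 libraries, and reached 0.961 in S534A library 2. The ratio of KRT7 to KRT8 ran from 1.35 in S534A library 2 to 2.24 in ∆GAG-BG library 1. Type II keratins as a whole exceeded type I keratins by 1.74 to 2.21 times in every library. Types were assigned by gene number alone, and the pseudogene KRT87P was counted as type II.

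Behind them came KRT80 at a mean of 110 TPM, KRT10, a keratin of differentiated epidermis, at 47.1 TPM and KRT81, a hair keratin, at 6.73 TPM. Of 17 other keratins listed, 3 were expressed in every library, 6 were between and 8 were at most 3 counts throughout. Within that list KRT86, another hair keratin, came next at a mean of 1.2 TPM. KRT19, the type I keratin that accompanies KRT7 in most simple epithelia, held 3 to 17 counts per library, a mean of 0.832 TPM and 0.00983% to 0.0524% of the summed keratin TPM. Of the basal and squamous keratins listed, KRT5, KRT14, KRT6A, KRT6B, KRT16 and KRT1 had 0 counts in all 12 libraries. Others were not absent, with 8 to 44 counts per library for KRT15, 0 to 90 for KRT17, 0 to 4 for KRT13 and 0 to 2 for KRT4. All of these and KRT19 were picked out after their values were seen.

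Counts of KRT8 and KRT18 have near neighbours in the genome. The 2 genes overlap on opposite strands and share 525 exon bases, 7.6% of KRT8 and 16.3% of KRT18, and reads there cannot be told apart, because whether counting used strand is not given in the sources used here. KRT7 shared 282 exon bases (6.9%) with RP3-416H24.1 and 32 (0.8%) with KRT87P on the opposite strand. Both keratins of the pair also have many processed copies, and all KRT8P genes together held 2.18% to 3.40% as many counts as KRT8, and all KRT18P genes 0.351% to 0.577% as many as KRT18. The highest copies were KRT8P12 at 220 to 385 counts, KRT8P3 at 117 to 219 counts and KRT8P33 at 28 to 85 counts, and on the KRT18 side KRT18P15, KRT18P17 and KRT18P59 at 2 to 16 counts. KRT8P36 held 27 to 61 counts, and KRT8P10, KRT8P14, KRT8P39 and KRT8P46 reached 10 to 16.

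No stretch of 150 bases, the length of a read, was identical between these 6 highest copies and their parent. At 50 bases 28.2% of stretches in KRT8P3 were found in KRT8, 9.32% in KRT8P33 and 0.2% in KRT8P12. On the other side 5.77% of stretches in KRT18P17 were found in KRT18, 3.3% in KRT18P15 and 0% in KRT18P59. Part of the counts of the copies that share stretches, KRT8P3 and KRT8P33 above all, is therefore uncertain.

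PAX8 (chr2:113215997-113278950, minus strand), the Müllerian and thyroid lineage factor, was strongly expressed. Its mean of 145 TPM was higher than that of 92.3% of the genes tested. It read 219, 281 and 273 CPM in control vector, 193, 282 and 295 CPM in ∆GAG-BG, 224, 194 and 274 CPM in S534A and 209, 269 and 270.0 CPM in S545A. Values of 193 to 224 CPM came from library 1 of every group and S534A library 2, and the other 7 libraries lay at 269 to 295 CPM, so every group spanned the gap and the groups overlapped. PAX8-AS1, an antisense gene sharing 685 exon bases (9.3% of PAX8), held 486 to 1083 counts against 4261 to 7909 for PAX8. Its CPM was 22 in ∆GAG-BG library 1 and 47.3 in ∆GAG-BG library 3, the libraries where PAX8 was also lowest and highest.

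WT1 (chr11:32387775-32435630, minus strand), the zinc finger factor of the urogenital ridge, was present at a far lower level. With 83 to 251 counts per library, its mean of 5.81 TPM was higher than that of 31.8% of the genes tested. It was 7.50, 4.38 and 4.58 CPM in control vector, 4.53, 5.75 and 6.45 CPM in ∆GAG-BG, 6.36, 8.37 and 5.15 CPM in S534A and 6.20, 4.06 and 3.41 CPM in S545A. S534A library 2, low for PAX8, KRT7 and KRT18, was the highest for WT1, and S545A library 3, the highest for KRT7, was the lowest. WT1-AS, its antisense neighbour, held 32 to 70 counts and shared 113 exon bases, 2.7% of WT1.

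Other genes of the Müllerian and serous lineage were found only in part. Of 25 listed, 5 were expressed in every library, 7 were between and 13 were at most 3 counts throughout. The highest were MECOM, a transcription factor gained in many serous carcinomas, at 43.6 TPM, BCAM, a laminin receptor, at 15.3 TPM, HOXA10, which patterns the uterus, at 11.2 TPM, and CRABP2, a retinoic acid carrier, at 8.95 TPM. SOX17, the factor that works beside PAX8 in the Müllerian epithelium, had 0 to 7 counts per library. Each of those 13 had 0 counts in all 12 libraries, among them EMX2, PGR, FOXJ1 of ciliated cells, CDKN2A, which encodes p16, and the kallikreins KLK5, KLK6, KLK7, KLK8, KLK10 and KLK11. SOX17 and the genes at 0 were singled out after their values were seen.

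A list of 20 genes for other ovarian tumor types had 5 expressed, 6 between and 9 at most 3 counts. AMH and FOXL2, known from granulosa cells, were at 22.6 and 12.6 TPM, and ANXA4, raised in clear cell tumors, was at 20.1 TPM.

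Of the antigens MSLN, MUC16, WFDC2 and FOLR1, mesothelin alone was expressed. MSLN (chr16:760762-768865, plus strand) had 174 to 528 counts per library and a mean of 21.7 TPM, higher than that of 56.6% of the genes tested. It read 7.15, 15.4 and 14.6 CPM in control vector, 7.88, 17.7 and 17.4 CPM in ∆GAG-BG, 7.25, 7.97 and 16.2 CPM in S534A and 6.89, 17.6 and 18 CPM in S545A. The values formed a low set of 6.89 to 7.97 CPM, library 1 of every group and S534A library 2, and a high set of 14.6 to 18 CPM in the other 7 libraries. These are the same libraries that were low and high for PAX8. The coefficient of variation of MSLN over the 12 libraries was 38.1%, larger than that of 97.1% of the 3377 genes tested whose mean CPM lay within 2-fold of it. Since every group held libraries of both sets, and the labels name no batch, this split is given as a description only.

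MUC16 (chr19:8848844-8981342, minus strand) had 0 counts in all 12 libraries over 43830 counted exon bases. The RefSeq windows ahead of MUC16 starts begin at 9010410 and 9065752, outside the interval that was counted, so exons there were not part of this value. WFDC2 (chr20:45469706-45481532, plus strand) had 10 counts in all: 0, 1 and 0 in control vector, 0, 1 and 1 in ∆GAG-BG, 2, 0 and 1 in S534A and 1, 0 and 3 in S545A. FOLR1 (chr11:72189558-72196301, plus strand) had 1 count in all, in S545A library 1. At 0 counts a library allows up to 3, which is at most 0.182 CPM. That bound does not cover the libraries in which WFDC2 or FOLR1 had counts. Differences between groups in these 3 genes were not tested, since their counts were too low. FOLR3, a paralog of FOLR1, was at most 3 counts as well.

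EPCAM (chr2:47345158-47387601, plus strand) was close to the limit of expression. It had 43, 25 and 41 counts in control vector, 16, 38 and 30 in ∆GAG-BG, 28, 11 and 26 in S534A and 30, 20 and 40 in S545A. In CPM these were 1.49, 1.18 and 1.60, then 0.725, 1.76 and 1.35, then 0.995, 0.367 and 1.58, and then 1.16, 0.979 and 1.37. The lowest were S534A library 2 and ∆GAG-BG library 1, the libraries that stood out among the keratins.

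**Figure D3:**
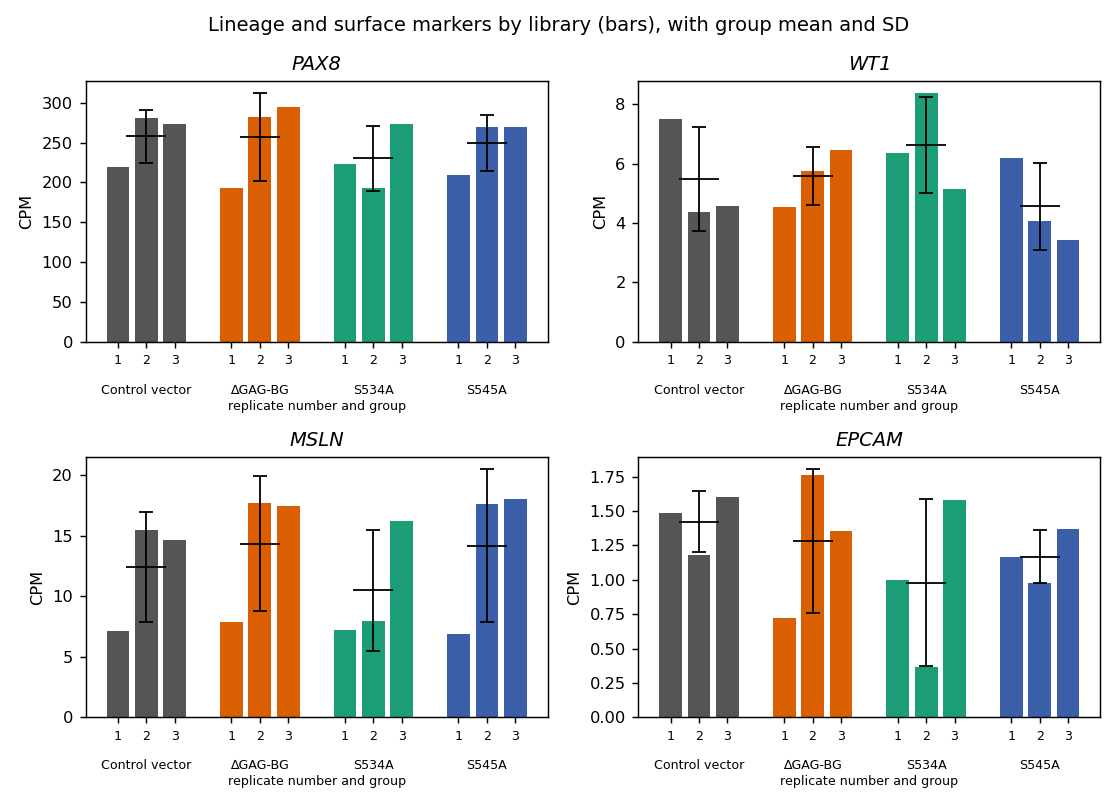
CPM of PAX8, WT1, MSLN and EPCAM in each library (bars, numbered by replicate within the 4 groups), with the group mean (horizontal line) and SD (error bar, n = 3). MSLN is at 6.89 to 7.97 CPM in library 1 of every group and in S534A library 2 and at 14.6 to 18 CPM elsewhere, PAX8 is low in the same 5 libraries, and WT1 is highest in S534A library 2.

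Among 31 genes of epithelial junctions and the epithelial state, 7 were expressed in every library, 15 were between and 9 were at most 3 counts. TJP1, which encodes ZO-1 and is not limited to epithelia, led at 79.3 TPM, and the desmosomal genes DSP and PKP3 were at 20.2 and 13.4 TPM. E-cadherin, CDH1, had 0 counts in all 12 libraries. GRHL2, OVOL1, OVOL2 and RAB25, an epithelial set of 3 transcription factors and a small GTPase, reached at most 1 count, and the splicing factor ESRP1 was at 0.226 to 0.815 CPM. CDH1, ESRP1 and these 4 genes were singled out after their values were seen.

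Of 13 genes of the mesenchymal state, 9 were expressed in every library, 3 were between and 1 was at most 3 counts. VIM was at 1973 to 2563 TPM, above each of the 3 keratins in every library. SPARC was at 330.0 TPM, FN1 (fibronectin) at 164 TPM and CDH2 (N-cadherin) at 121 TPM. ZEB1, a repressor of CDH1 that was chosen after its values were seen, was at 45.8 to 70.4 TPM. High simple keratins, PAX8 and VIM thus stood beside 0 counts of CDH1 and near-limit EPCAM in the same libraries.

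**Figure D4:**
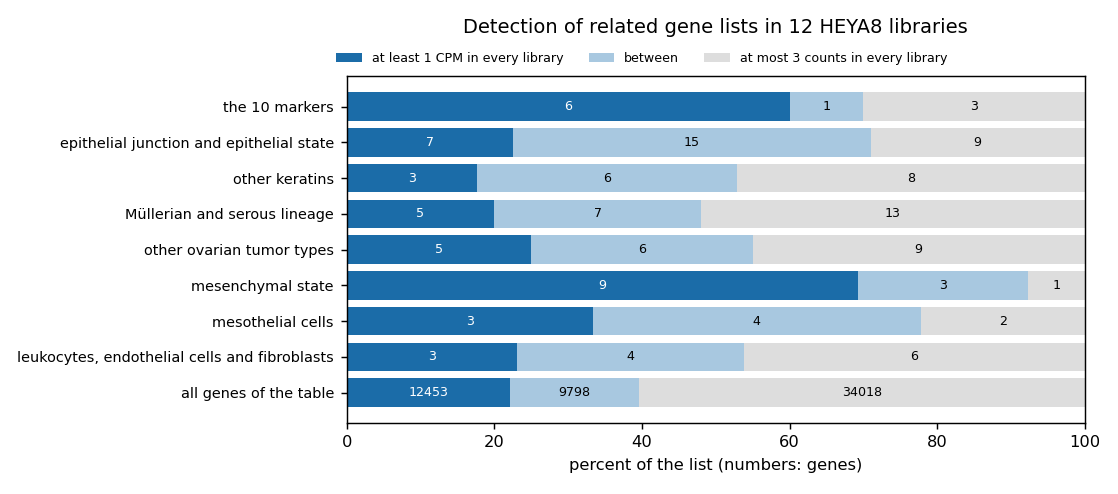
Share of each gene list, in percent, that was at least 1 CPM in every library, at most 3 counts in every library, or between, with the number of genes printed in each bar. The 10 markers have 6 genes at 1 CPM or more, the mesenchymal list 9 of 13 and the epithelial list 7 of 31, and the bar for all genes of the table has 22.1%.

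Markers of other cells that share MSLN or WT1 with carcinoma, or that a culture could hold, were checked. Of 9 mesothelial genes 3 were expressed in every library, 4 were between and 2 were at most 3 counts. PDPN, also found in tumor cells, was at 337 TPM, BNC1 at 96.6 TPM, THBD (thrombomodulin) at 58.6 TPM and CALB2 (calretinin) at 1.25 TPM. Of 13 genes of leukocytes, endothelial cells and fibroblasts 3 were expressed, 4 were between and 6 were at most 3 counts. CDH5 (VE-cadherin) stood at 252 TPM, while VWF, PDGFRB and KDR were at 3.93, 2.01 and 1.73 TPM. PTPRC, the CD45 gene of leukocytes, reached at most 2 counts, PECAM1 had 4 to 17 counts, and CD3E, DCN and LUM had 0, all named after their values were seen.

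Genes whose log2 CPM followed an expressed marker most closely over the 12 libraries are given as a description. Libraries 2 and 3 of 3 groups were much alike, so the 12 points are not independent. PAX8 was followed by ENDOD1, ZNF703 and ROCK2 (Pearson r 0.98 for each), and MSLN by GPR176 and GREM1 (0.99) and MGLL (0.98). GREM1, which encodes a secreted BMP antagonist, spanned 14.6 to 90.2 CPM, a wider span than the 6.89 to 18 CPM of MSLN. For WT1 the nearest were ACOT7, PHF13 and SAMD1 (0.98). For KRT7 they were a gene named only by its clone, NUAK1 and DEDD (0.95 to 0.96), for KRT8 they were SIRPA, C14orf1 and CDKN2C (0.95 to 0.98), and for KRT18 they were MATN3, CMIP and SEC23A (0.98).

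The design sets the 3 betaglycan mutants against each other and against control vector, and the question for these genes is whether any marker differed with the GAG chains that betaglycan could carry. None of the 7 markers that could be tested passed the threshold in any of the 6 comparisons. MUC16, WFDC2 and FOLR1 were removed by the filter on low counts. By edgeR's quasi-likelihood test, with Benjamini-Hochberg adjustment over 16069 genes, 0 of 7 had an adjusted p under 0.05 in each comparison, and 0 of 7 an unadjusted p under 0.05. DESeq2 gave 0 of 7 at either level in each comparison and limma-voom 0 of 7 at the adjusted level. The background was as low, with 0% of all genes called by edgeR after adjustment in each of the 6. The smallest adjusted p of any marker was 0.702 in edgeR. A p that misses the threshold does not show that levels were alike.

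S534A against ∆GAG-BG compares betaglycan with 1 remaining GAG site and betaglycan with none. MSLN was 10.5 ± 5.0 CPM in S534A and 14.3 ± 5.58 CPM in ∆GAG-BG (SD, n = 3), a log2 fold change of −0.47 with a 95% interval of −1.48 to 0.54. EPCAM had a log2 fold change of −0.46 (−1.42 to 0.49), and WT1 of 0.26 (−0.34 to 0.86). The intervals of the more abundant markers were narrower: −0.34 to 0.29 for KRT7, −0.25 to 0.32 for KRT8, −0.43 to 0.10 for KRT18 and −0.54 to 0.23 for PAX8. Without libraries 2 and 3 of ∆GAG-BG and control vector, which leaves 1 library in each of these groups and assumes that it varies like the others, KRT8 was higher in S534A by 0.42 (log2) at an unadjusted p of 0.0245 and an adjusted p of 0.374 in edgeR, and PAX8, MSLN, KRT18 and EPCAM turned in direction. The KRT8 value then rests on ∆GAG-BG library 1 alone, the library at 687 CPM. No marker had groups that did not overlap, against 5.65% of all genes, and 2.99% of all genes had an unadjusted p under 0.05.

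In S545A against ∆GAG-BG the largest estimate was that of WT1. It was 4.56 ± 1.46 CPM in S545A and 5.58 ± 0.973 CPM in ∆GAG-BG, a log2 fold change of −0.29 (95% interval −0.90 to 0.32). KRT7 was 1019.8 ± 173 against 923 ± 8.37 CPM, a log2 fold change of 0.14 (−0.17 to 0.46). PAX8, MSLN, KRT8, KRT18 and EPCAM had estimates between −0.12 and −0.02, with the interval of MSLN reaching from −1.01 to 0.98. Without ∆GAG-BG library 1, KRT8 was lower in S545A by 0.22 (log2) at an unadjusted p of 0.0276 and an adjusted p of 0.862 in edgeR. Without libraries 2 and 3 of ∆GAG-BG and control vector it was higher by 0.31 at an unadjusted p of 0.0691 and an adjusted p of 0.954, so the direction for KRT8 followed which ∆GAG-BG libraries were used. No marker had groups apart, against 5.04% of all genes, and 1.10% of all genes had an unadjusted p under 0.05.

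S545A against S534A compares the single-site mutants and is the only comparison whose own groups hold none of the libraries that go against their labels. Those libraries still entered the single fit, and so the spread behind the edgeR p-values of this comparison. WT1 showed the smallest unadjusted p of the 42 tests on markers. It was 4.56 ± 1.46 CPM in S545A and 6.63 ± 1.62 CPM in S534A, a log2 fold change of −0.55 (SE 0.277, 95% interval −1.15 to 0.05), with an unadjusted p of 0.0708 and an adjusted p of 0.702 in edgeR. The groups overlapped, since S545A library 1 at 6.20 CPM lay above S534A library 3 at 5.15 CPM, and an exact permutation test, two-sided, gave p = 0.2 (n = 3 and 3), where 0.1 is the smallest value possible. Its unadjusted p fell under 0.05 with no filter on low counts (0.0389), in limma-voom (0.0499), and in edgeR without S534A library 3 (0.0373) or without S545A library 1 (0.0136). None of these held after adjustment, with adjusted p of 0.307 to 0.798. MSLN had a log2 fold change of 0.45 (−0.55 to 1.46) and EPCAM of 0.34 (−0.60 to 1.29). For KRT7, KRT8, KRT18 and PAX8 the estimates lay between −0.10 and 0.17, and without S545A library 1 KRT7 was higher in S545A by 0.31 at an unadjusted p of 0.0408 and an adjusted p of 0.415. Of all genes 4.78% had an unadjusted p under 0.05, and 10.1% had groups that did not overlap.

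∆GAG-BG against control vector gave the smallest estimate of the 6 comparisons for 4 of the 7 markers (PAX8, WT1, KRT8 and KRT18), and in it 4 of the 6 libraries go against their labels. PAX8 was 256 ± 55.3 against 258 ± 33.4 CPM, a log2 fold change of −0.01 (95% interval −0.40 to 0.38). KRT7, KRT8, KRT18 and WT1 had estimates between −0.03 and 0.02. MSLN was at 0.21 (−0.78 to 1.21) and EPCAM at −0.16 (−1.06 to 0.75). With library 1 alone in each group, EPCAM was lower in ∆GAG-BG by 1.05 (log2), WT1 by 0.74 and KRT8 by 0.39, none with an unadjusted p under 0.05 in edgeR. Of all genes 0.871% had an unadjusted p under 0.05 and 4.87% had groups apart.

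In S534A against control vector EPCAM had the largest estimate of any marker. It was 0.979 ± 0.605 CPM in S534A and 1.42 ± 0.220 CPM in control vector, a log2 fold change of −0.62 (95% interval −1.55 to 0.31) with an adjusted p of 0.871 in edgeR. KRT18 was 556 ± 93.5 against 632 ± 11.1 CPM, a log2 fold change of −0.19 (−0.45 to 0.08). S534A library 2, at 0.367 CPM for EPCAM and 450.4 CPM for KRT18, was the low library behind both. Without S534A library 3 EPCAM was at −1.07 (unadjusted p 0.0288, adjusted p 0.417 in edgeR). KRT18 was then at −0.28 (unadjusted p 0.0466, adjusted p 0.424 in edgeR). Without libraries 2 and 3 of ∆GAG-BG and control vector EPCAM was at −0.69 and KRT18 at −0.19, with neither p under 0.05. No marker had groups apart, against 7.65% of all genes, and 3.45% of all genes had an unadjusted p under 0.05.

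S545A against control vector held the only marker whose groups did not overlap. KRT18 was 597 ± 31.8 CPM in S545A and 632 ± 11.1 CPM in control vector, a log2 fold change of −0.08 (95% interval −0.35 to 0.18), lower in 3 of 3 libraries. An exact permutation test, two-sided, gave p = 0.1 (n = 3 and 3), the smallest possible, edgeR gave an unadjusted p of 0.505, and 8.82% of all genes had groups apart in this comparison. The estimate was −0.09 without libraries 2 and 3 of ∆GAG-BG and control vector. WT1 and EPCAM were at −0.27 (−0.88 to 0.33) and −0.28 (−1.18 to 0.62), and the other 4 markers between −0.06 and 0.20. Without the libraries that go against their labels WT1 was at −0.74 and MSLN at 0.97, neither with an unadjusted p under 0.05 in edgeR. Of all genes 1.05% had an unadjusted p under 0.05.

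**Figure D5:**
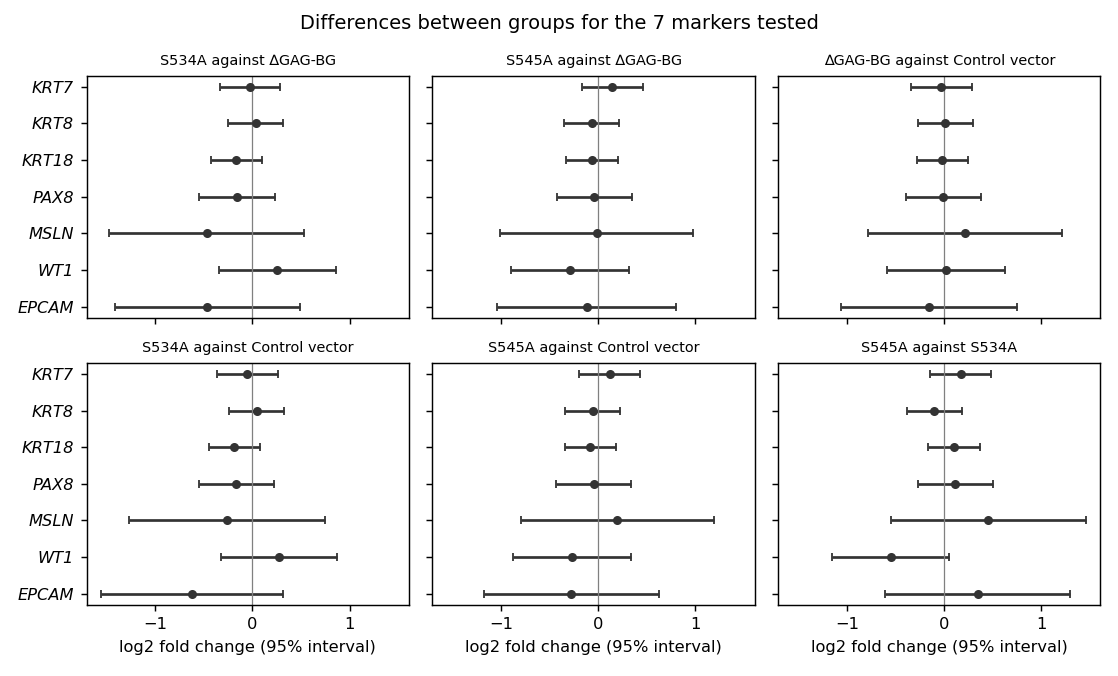
Log2 fold change of the 7 markers tested in each of the 6 comparisons (points, first-named group over the other), with 95% intervals from the edgeR fit. Every interval includes 0, those of KRT7, KRT8, KRT18 and PAX8 stay within 0.55 of 0 and those of WT1, MSLN and EPCAM are wider.

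The related lists held a few genes at an unadjusted p under 0.05, and after adjustment edgeR called 0 genes of any list in any comparison. In S534A against ∆GAG-BG, where 2.99% of all genes had an unadjusted p under 0.05, they were 2 of 11 mesenchymal genes tested and 1 of 13 epithelial genes. FN1 was 414 CPM in S534A against 1045 CPM in ∆GAG-BG, VIM 2468 against 2827 CPM, and DSP, the desmoplakin gene, 34.4 against 58.7 CPM. With the libraries that go against their labels left out, the log2 fold change of FN1 went from −1.33 to −1.77 (adjusted p 0.0781 in edgeR), that of VIM from −0.20 to −0.34 (unadjusted p 0.0287) and that of DSP from −0.78 to −0.50 (unadjusted p 0.26).

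In S545A against ∆GAG-BG, where the share over all genes was 1.10%, 1 of 11 mesenchymal genes did, FN1 at 544 CPM in S545A, and its log2 fold change went from −0.94 to −1.38 without those libraries (adjusted p 0.30 in edgeR). In S534A against control vector, where the share was 3.45%, they were DSP (1 of 13 epithelial genes tested), AMH (1 of 5 for other ovarian tumor types) and BNC1 (1 of 6 mesothelial genes). DSP was lower in S534A, at 34.4 against 56.6 CPM, AMH was higher and BNC1 lower. Their unadjusted p was 0.0536, 0.117 and 0.173 without those libraries. In S545A against S534A, where the share was 4.78%, OVGP1, an oviductal glycoprotein named after its values were seen, was 1.41 against 0.905 CPM, 1 of 8 Müllerian genes tested, and KRT8P33 was 2.66 against 1.73 CPM. Adjusted p-values of these genes in edgeR, with all libraries, were 0.702 or more.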

How the data were processed

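RNA-seq counts per gene, unnormalized, were deposited by the authors as 1 table for 12 libraries. The processing notes and the methods name FastQC, Trim Galore 0.4.5, STAR 2.4, SAMtools 1.2 and featureCounts. The notes name mouse builds, but the gene coordinates in the table are those of GRCh38: of 36113 symbols found in GENCODE release 29, 33648 had the same start and end. Annotation release and strand setting are not given in the sources used here.

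After filterByExpr (minimum count 10) and TMM scaling, edgeR 4.0.16 (R 4.3.3) gave robust quasi-likelihood tests from a single fit to the 12 libraries, leaving 8 degrees of freedom for the spread, with Benjamini-Hochberg adjustment over 16069 genes. The biological coefficient of variation was 0.163. Scripts were tested on simulated data. Total counts of 16410001 to 29504297 make 3 counts 0.10 to 0.182 CPM. TPM were computed from the counts and the length column. Groups were also compared by two-sided exact permutation tests, which cannot go below p = 0.1. Intervals are 95%.

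Groups came from titles and genotype labels. For S545A and control vector, deviations from the group mean correlated between libraries of the same number (0.60, 0.30 and 0.29), which alone was the ground for reading the numbers as pairs there. Alternatives were limma-voom (limma 3.58.1), DESeq2 1.42.0, scaling by RLE or by library size alone, a filter of 10 counts in every library or none, fits to the groups compared, a replicate block, each library left out and libraries 2 and 3 summed. Leaving out the libraries that go against their labels was added after seeing the data. The text names all markers, TGFBR3, the 4 genes of highest mean TPM in each list, neighbours and copies with at least 10 counts, and the 3 nearest patterns. Other genes are said to be chosen after their values were seen. Some genes of the lists are not reported here. The markers, lists and alternatives were chosen with earlier results of these data known.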

Additional observations from a re-analysis of the deposited data

How the results depend on the processing

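The number of markers expressed in every library was 6 at each limit tried, and 0 markers passed an adjusted p of 0.05 in any comparison under any alternative, DESeq2 and limma-voom included. At the unadjusted level the count was 0 and became 1 in S534A against ∆GAG-BG without libraries 2 and 3 of ∆GAG-BG and control vector, 1 in S545A against S534A with no filter, 1 there in limma-voom, and 0 to 1 in S545A against ∆GAG-BG, 0 to 2 in S534A against control vector and 0 to 2 in S545A against S534A with each library left out. The replicate block changed no call, in S545A against control vector or elsewhere, and in it KRT8 in ∆GAG-BG against control vector was −0.0059. Outside S545A against control vector, correlations of same-numbered libraries were −0.23 to 0.39. No leave-out of the added kind is given for S545A against S534A, whose own groups hold none of those libraries. They still entered its spread through the single fit.

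Directions were not stable for many estimates, the larger ones of MSLN, EPCAM and WT1 included, and in none of these turns was p under 0.05. The cause was not tested. With libraries 2 and 3 summed, log2 fold changes became 0.013 for EPCAM in S545A against ∆GAG-BG, and −0.083 for KRT8 and −0.17 for WT1 in ∆GAG-BG against control vector, where KRT8 was also −0.0020 with no filter and −0.010 in limma-voom. Without libraries 2 and 3 of ∆GAG-BG and control vector, 18 of 35 estimates turned. In S534A against ∆GAG-BG these were PAX8 0.25, MSLN 0.39, KRT18 0.023 and EPCAM 0.36, and in S545A against ∆GAG-BG they were PAX8 0.37, WT1 0.0060, MSLN 0.84, KRT8 0.31, KRT18 0.12 and EPCAM 0.69. In ∆GAG-BG against control vector they were WT1 −0.74, KRT7 0.077 and KRT8 −0.39, in S534A against control vector PAX8 0.051, WT1 −0.19, MSLN 0.51 and KRT7 0.064, and in S545A against control vector PAX8 0.16.

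With each library left out in turn, 37 of 252 estimates turned. In S534A against ∆GAG-BG KRT7 ran from −0.16 to 0.10 and KRT8 from −0.12 to 0.12. In S545A against ∆GAG-BG PAX8 ran from −0.20 to 0.079, MSLN from −0.30 to 0.32, KRT8 from −0.22 to 0.026, KRT18 from −0.14 to 0.0025 and EPCAM from −0.40 to 0.18. In ∆GAG-BG against control vector PAX8 ran from −0.12 to 0.15, WT1 from −0.12 to 0.32, MSLN from −0.070 to 0.50, KRT7 from −0.091 to 0.025, KRT8 from −0.083 to 0.16, KRT18 from −0.086 to 0.057 and EPCAM from −0.46 to 0.12. In S534A against control vector KRT7 ran from −0.19 to 0.069. In S545A against control vector PAX8 ran from −0.15 to 0.067, WT1 from −0.56 to 0.024, MSLN from −0.086 to 0.53 and KRT8 from −0.10 to 0.0096, and in S545A against S534A KRT18 ran from −0.026 to 0.20 and EPCAM from −0.080 to 0.80. Depth limits EPCAM, at 11 to 43 counts, and any statement on MUC16, WFDC2 and FOLR1.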
